A study of Homo sapiens with 2 samples.

Results

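Of the 8 replication-dependent histone genes that the authors' deposited table lists, 7 were higher, and all 4 variant histone genes described were lower, in ebastine-treated than in vehicle-treated C4-2 cells. C4-2 is an established human prostate cancer line derived from LNCaP, and ebastine is an antihistamine that blocks the H1 receptor. The series title names EZH2, the methyltransferase of lysine 27 on histone H3, as the drug's target. One library of polyadenylated RNA represented ebastine-treated cells and 1 represented cells given vehicle. Both cultures were at passages 10 to 15 in medium with serum, and neither the dose nor the exposure time is given in the sources used here. With 1 library per group there was no spread between replicates, so no difference below has an error or a test of the conditions.

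Histone genes were taken by name from the 1947 genes in the authors' deposited table: names that start with HIST and a digit, or with H1F, H2AF or H3F. The rule found 13 genes, 8 replication-dependent (the HIST names) and 5 variant, of which all 8 and 4 are described. GENCODE release 29 annotates 71 and 16 protein-coding genes of these classes, but the number that entered the authors' test is not known. The table ends at a p-value of 0.05, so every gene in it, members included, had to differ between the libraries in one direction or the other. The size of a difference was therefore partly set by the table, and the direction was not. No H3 gene, replication-dependent or variant, was among the 12 described. Values of histone genes outside the table were not analysed here.

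Replication-dependent histones package newly made DNA. Their mRNAs are made mainly in S phase and, unlike other mRNAs, usually end at a conserved stem-loop instead of a poly(A) tail. Some of these genes also give polyadenylated forms, mostly in cells that leave the cycle or differentiate. Variant histones such as H2A.Z mostly come from genes with ordinary polyadenylated mRNAs and are incorporated through the cycle or at special places. Histones H2A, H2B, H3 and H4 form the nucleosome core, and H1 binds the linker DNA between cores.

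Of the 8 replication-dependent genes, 7 were higher and 1 was lower in the ebastine library, where 43.0% of all listed genes were higher, counted over the 1768 whose mean level reached 1 FPKM. All 4 variant genes described were lower, where 57.0% of the same genes were lower. FPKM counts sequenced fragments per kilobase and per 1000000 mapped ones, so it is a level per length. Ratios are of ebastine over vehicle after adding 1 FPKM to both values, on the log2 scale, which understates the change of low genes. The median log2 ratio was 0.66 over the 8 replication-dependent genes, -0.54 over the 4 variant genes and -0.32 over the 1768 listed genes. At a limit of 1.5-fold, 4 of 8 replication-dependent genes were higher, beside 9.67% of listed genes, and 1 was lower, beside 18.6%. At the same limit 1 of 4 variant genes was lower. In the authors' deposited table, 2 replication-dependent genes had a q-value under 0.05 and were higher (15.2% of listed genes), and 3 variant genes had one and were lower (27.0% of listed genes). These q-values come from a test of 1 library against 1 and compare the libraries, not the conditions. The deposited values are scaled by the authors. Centring the ratios of well-expressed listed genes on 0 raises all ratios, by up to 0.34 on the log2 scale. Only the 5 lower histone genes could change direction with it, and none did. The centre comes from genes that passed the table's p-value limit, so it is not a measure of the scale of the whole libraries.

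**Figure D1:**
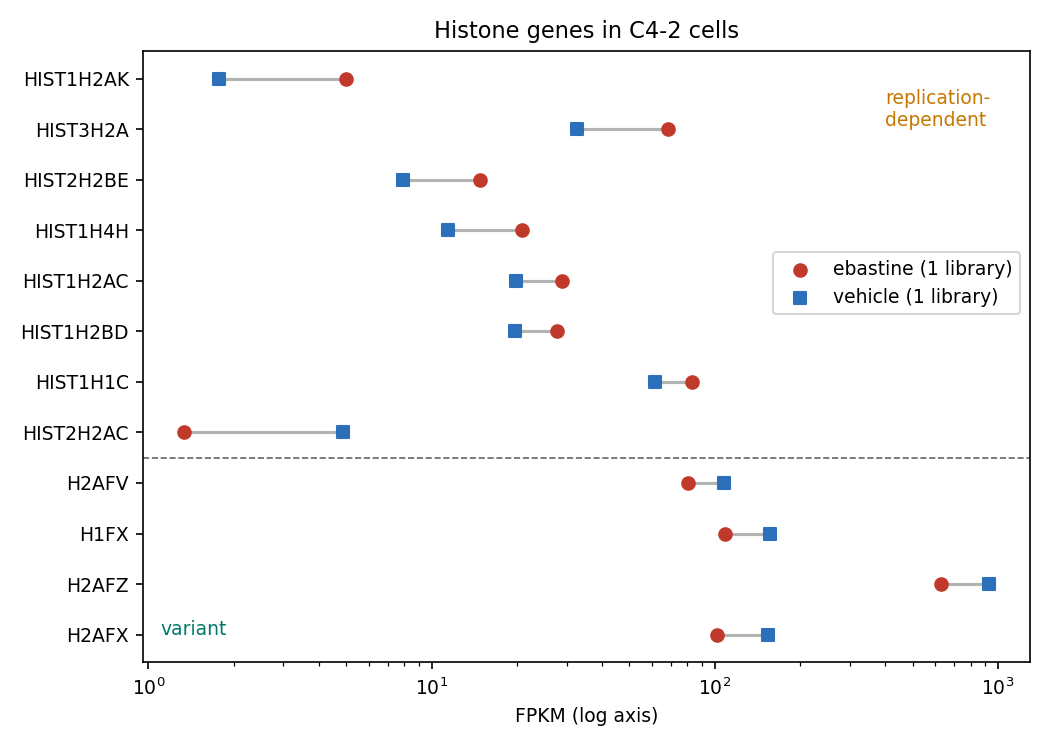
FPKM (log axis) of the 12 histone genes in the ebastine library (circles) and the vehicle library (squares), 1 library each, with a line joining the values of a gene. Above the dashed line 7 of 8 replication-dependent genes have the circle to the right, and below it all 4 variant genes have it to the left.

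The 12 genes belonged to the H2A, H2B, H4 and H1 families. H2A genes were the most numerous, with 4 replication-dependent members. HIST3H2A (now H2AC25; hg19 chromosome 1, 228645065 to 228645560) encodes an H2A from a small cluster outside the main histone clusters. It had 68.4 FPKM in the ebastine library and 32.7 FPKM in the vehicle library, a 2.06-fold ratio and the 29th highest of the 1768 genes. The q-value of 0.00178 beside it is from the authors' deposited table. HIST1H2AK (H2AC15; chromosome 6, 27805658 to 27806117), from the large chromosome 6 cluster, had 4.98 FPKM in the ebastine library and 1.77 FPKM in the vehicle library. Its ratio of 2.16-fold was the highest of the histone genes, but its level was low. With a pseudocount of 5 FPKM its log2 ratio was 0.56, below those of HIST3H2A (0.96), HIST1H4H (0.65) and HIST2H2BE (0.62). The authors' deposited table has it at a q-value of 0.142. Another gene of that cluster, HIST1H2AC (H2AC6; chromosome 6, 26124373 to 26139332), stood at 28.99 FPKM in the ebastine library and 20.0 FPKM in the vehicle library, a 1.43-fold ratio at a q-value of 0.192 in the authors' deposited table.

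HIST2H2AC (H2AC20; chromosome 1, 149858525 to 149858961) was the exception among replication-dependent genes. It had 1.33 FPKM in the ebastine library and 4.87 FPKM in the vehicle library, 2.51-fold lower with the pseudocount and 3.65-fold lower without it. Its ratio was the 21st lowest of the 1768 genes. It was also the least abundant histone gene in the ebastine library, and the authors' deposited table has a q-value of 0.17 for it.

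The neighbour of HIST2H2AC went the other way. HIST2H2BE (H2BC21; chromosome 1, 149856010 to 149858232) encodes an H2B, and its reported locus ends 292 bases before that of HIST2H2AC. It had 14.9 FPKM in the ebastine library and 7.96 FPKM in the vehicle library, 1.77-fold higher, with a q-value of 0.00178 in the authors' deposited table. In RefSeq (GRCh38.p14) the genes are transcribed away from each other from start sites 236 bases apart, so their promoter windows of 300 bases (250 before the start and 50 from it on) share 265 bases. The window of HIST2H2AC (GRCh38.p14, plus strand, chr1:149886668-149886967) is shown because it holds the start regions of both genes, which differed in opposite directions.

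HIST2H2AC: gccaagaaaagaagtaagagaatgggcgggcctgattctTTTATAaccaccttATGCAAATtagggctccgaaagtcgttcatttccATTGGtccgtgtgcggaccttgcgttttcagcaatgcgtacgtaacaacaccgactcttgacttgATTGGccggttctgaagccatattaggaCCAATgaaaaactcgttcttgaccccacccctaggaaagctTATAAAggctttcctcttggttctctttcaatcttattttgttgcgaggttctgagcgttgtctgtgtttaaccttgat

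Capitals mark the motifs ATTTGCAT, CCAAT and TATAAA on either strand, with no overlap among them. The TATAAA copy on the strand of HIST2H2AC begins 29 bases before its start, and another on the opposite strand begins 30 bases before the start of HIST2H2BE. ATTTGCAT is the octamer known from H2B promoters, where the POU factor OCT1 binds. Its single copy here begins 46 bases before the start of HIST2H2BE and faces that gene. CCAAT boxes, the element bound by the factor NF-Y, lie between the starts. A match is only a description of the letters in the window.

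The other H2B gene, HIST1H2BD (H2BC5; chromosome 6, 26158349 to 26171576), was at 27.8 FPKM in the ebastine library and 19.7 FPKM in the vehicle library, 1.39-fold higher. The single H4 gene, HIST1H4H (H4C8; chromosome 6, 26281283 to 26285762), was at 20.8 FPKM in the ebastine library and 11.4 FPKM in the vehicle library, 1.75-fold higher. HIST1H1C (H1-2; chromosome 6, 26055968 to 26056699), which encodes the linker histone H1.2, was at 83.1 FPKM in the ebastine library and 61.5 FPKM in the vehicle library, 1.35-fold higher. It was the most abundant of the replication-dependent genes in both libraries. In the authors' deposited table the q-values of these genes were 0.244, 0.109 and 0.0814.

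Among the variants, H2AFZ (H2AZ1; chromosome 4, 100869243 to 100871512) encodes H2A.Z, which marks promoters and other regulatory sites. It was the most abundant histone gene, at 632 FPKM in the ebastine library and 933 FPKM in the vehicle library, 1.48-fold lower. Its paralogue H2AFV (H2AZ2; chromosome 7, 44866488 to 44887725), which encodes a second form of H2A.Z, was at 80.3 FPKM in the ebastine library and 108 FPKM in the vehicle library, 1.34-fold lower. H2AFX (H2AX; chromosome 11, 118964585 to 118966177) encodes the H2A that is phosphorylated around DNA breaks. It was at 102 FPKM in the ebastine library and 154 FPKM in the vehicle library, 1.51-fold lower, the lowest ratio of the variant genes. The authors' deposited table has q-values of 0.00595 for H2AFZ, 0.116 for H2AFV and 0.00334 for H2AFX.

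A variant linker histone gene, H1FX (H1-10; chromosome 3, 129033614 to 129043412), was lower as well. It had 109 FPKM in the ebastine library and 157 FPKM in the vehicle library, 1.43-fold lower, with a q-value of 0.0116 in the authors' deposited table. These 4 variant genes lay close together, at log2 ratios from -0.60 to -0.42, and between the 313th and the 607th lowest of the 1768 listed genes. Their ratios were within the broad middle of listed genes that were lower. The replication-dependent genes were more dispersed, from -1.33 to 1.11.

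**Figure D2:**
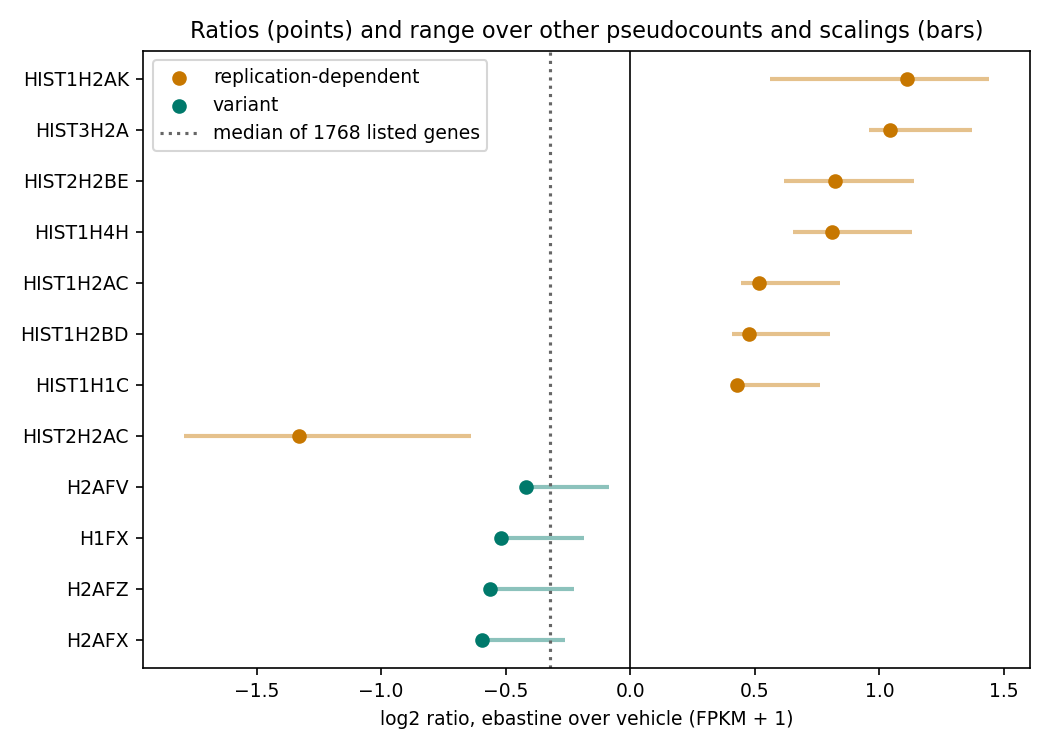
Log2 ratio of ebastine over vehicle (FPKM + 1) of each histone gene (points), with bars that span the values under other pseudocounts and other scalings of the libraries, and a dotted line at the median of the 1768 listed genes (-0.32). No bar crosses 0, and that of H2AFV comes nearest to it, at -0.09. The bars of the higher genes could not cross 0, because the scalings all raise the ebastine values and a pseudocount keeps the direction.

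Within families that held both classes, the balance of the listed genes differed between the libraries. Over the 7 listed H2A genes the replication-dependent ones summed to 104 FPKM in the ebastine library and 59.3 FPKM in the vehicle library. The 3 H2A variants summed to 814 FPKM in the ebastine library and 1195 FPKM in the vehicle library. Replication-dependent genes gave 11.3% of this H2A sum with ebastine and 4.73% with vehicle. In the H1 family HIST1H1C gave 43.3% of its sum with H1FX with ebastine and 28.2% with vehicle. Over the 12 genes the share of the replication-dependent ones was 21.3% with ebastine and 10.6% with vehicle. These sums cover the genes described here alone and are not the total histone mRNA of the cells. In bulk RNA a different share of cells in S phase and a different amount of RNA per cell cannot be told apart.

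**Figure D3:**
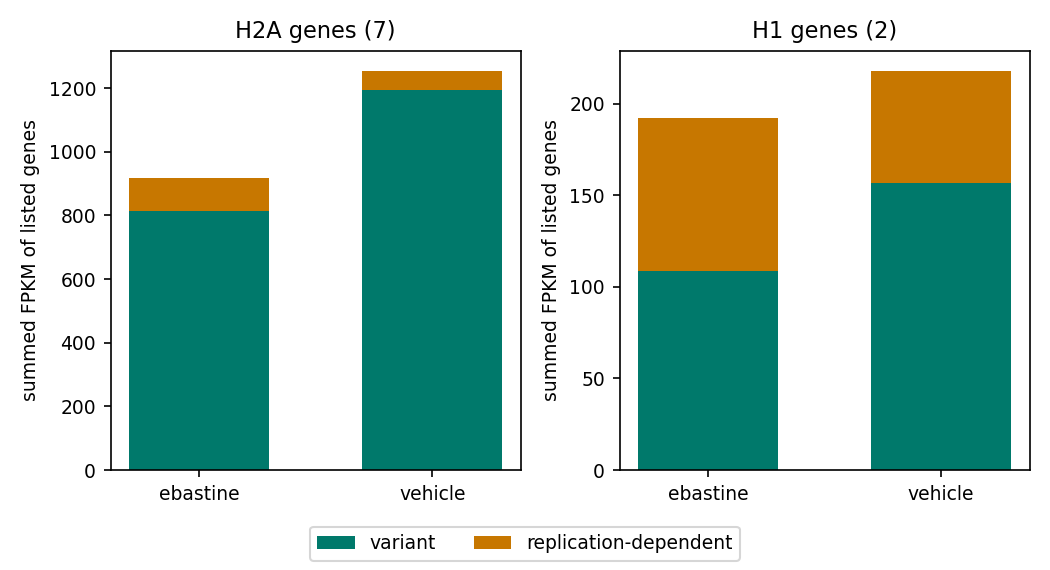
Summed FPKM of the 7 H2A genes (left) and of HIST1H1C and H1FX (right) in the ebastine and vehicle libraries, split into variant (lower part of each bar) and replication-dependent genes (upper part). The variant part is smaller and the replication-dependent part larger in the ebastine library in both families.

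The ends of the transcripts were examined because poly(A) selection captures replication-dependent histone mRNA only in part. In GENCODE release 29 (GRCh38), 4 of the 8 replication-dependent members have a transcript that holds the histone stem-loop. Over all genes, 29 of 90 with a HIST name have a match to the 16-base pattern searched for, and 3 of 57043 others do. Models that hold the coding sequence alone cannot show it, and a stem-loop that differs from the pattern is missed. These are therefore counts of annotated matches, not of all genes with a stem-loop. The stem-loop of each of the 4 genes is shown with 5 bases on either side, in capitals, since it is the point where the usual form of the mRNA ends.

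HIST3H2A: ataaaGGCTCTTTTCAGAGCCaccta
HIST2H2BE: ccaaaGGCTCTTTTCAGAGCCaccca
HIST1H2AC: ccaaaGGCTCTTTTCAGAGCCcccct
HIST1H4H: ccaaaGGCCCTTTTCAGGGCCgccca

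All 4 genes also have a GENCODE transcript that runs on past the stem-loop, by 390 to 1729 bases, and holds a later poly(A) signal. In HIST2H2BE the stem-loop begins at base 450 of a transcript of 2194 bases, and AATAAA ends 18 bases before its end. In HIST3H2A it begins at base 490 of 895, and ATTAAA ends 18 bases before the end. The HIST1H4H models include a short one of 397 bases that stops 18 bases after the stem-loop, and longer ones that run 630 and 1655 bases past it. Both HIST1H2BD models lack a match to the stem-loop pattern searched for, and have AATAAA 19 and 21 bases before the end. All 5 of these genes were higher with ebastine, beside 7 of all 8 replication-dependent genes and 43.0% of listed genes. A link between the form of the transcript end and the ratio was not tested.

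For HIST1H1C, HIST1H2AK and HIST2H2AC the only GENCODE model is the coding sequence alone, of 642, 393 and 390 bases, so their ends could not be examined. The first 2 were higher and HIST2H2AC was lower with ebastine. The values in the table do not separate transcripts that end at the stem-loop from polyadenylated ones, and histone genes of 1 family are near-identical in their coding parts, so reads can be split between copies.

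The promoter of HIST3H2A (GRCh38.p14, minus strand, chr1:228457824-228458123) and that of H2AFZ (GRCh38.p14, minus strand, chr4:99950226-99950525) are shown as the most abundant core-histone gene of each class.

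HIST3H2A: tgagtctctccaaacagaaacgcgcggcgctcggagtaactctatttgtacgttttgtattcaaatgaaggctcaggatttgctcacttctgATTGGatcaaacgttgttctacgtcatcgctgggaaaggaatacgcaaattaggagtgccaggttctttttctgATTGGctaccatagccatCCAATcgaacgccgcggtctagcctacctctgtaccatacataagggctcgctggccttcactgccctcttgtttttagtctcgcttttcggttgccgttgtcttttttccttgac
H2AFZ: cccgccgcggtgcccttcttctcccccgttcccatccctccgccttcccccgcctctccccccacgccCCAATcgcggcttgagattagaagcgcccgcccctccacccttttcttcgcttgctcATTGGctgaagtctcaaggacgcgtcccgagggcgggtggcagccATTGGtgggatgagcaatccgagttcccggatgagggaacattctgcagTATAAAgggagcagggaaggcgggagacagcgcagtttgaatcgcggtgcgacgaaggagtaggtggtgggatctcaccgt

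Capitals mark CCAAT on either strand and TATAAA. Both windows hold 3 CCAAT boxes, and H2AFZ also has TATAAA, 31 bases before its start. RefSeq gives a promoter for each of the 12 genes. CCAAT was in 10 of the 12, 7 of them replication-dependent and 3 variant, beside 39.7% of 27305 genes with a promoter window. TATAAA was in 7 of the 12, 4 replication-dependent and 3 variant, beside 14.0% of genes. The octamer ATTTGCAT was in 3, HIST2H2BE, HIST2H2AC (the copy they share) and HIST1H2AC, beside 2.19% of genes. The E2F-type motifs TTTGGCGC and TTTCGCGC were in none of the 12 windows, beside 0.795% and 0.63% of genes. CCAAT and TATAAA stood in front of genes of both classes.

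Other features of the libraries moved with the replication-dependent genes. Of 33 RNAs that lack a usual poly(A) tail in some or all of their forms, 3 were listed, beside 14.2% of all tested genes. All 3 were higher in the ebastine library, where 43.0% of listed genes were higher. RPPH1, the RNA of ribonuclease P, had 38.6 FPKM in the ebastine library and 17.8 FPKM in the vehicle library, a log2 ratio of 1.08. The nuclear RNA MALAT1, whose end is a triple helix, had a log2 ratio of 1.01, and NEAT1 had one of 0.32. Genes with a short reported locus were higher too. Of 7 other genes with a locus under 1 kb all 7 were higher, with a median log2 ratio of 0.82, beside -0.33 for the 1748 other genes with a longer locus. LENEP, 1 of these 7, had 16.3 FPKM in the ebastine library and 0.18 FPKM in the vehicle library. It reached the mean limit of 1 FPKM through the ebastine library alone, so it could only be counted as higher. The rest of the 7 had log2 ratios from 0.37 to 1.28. Among the histone genes, HIST3H2A (496 bases), HIST1H2AK (460 bases) and HIST1H1C (732 bases) have such a locus and were higher, and HIST2H2AC (437 bases) has one and was lower. HIST2H2BE, HIST1H4H, HIST1H2BD and HIST1H2AC have reported loci of 2.22 to 15.0 kb and were also higher. The part of poly(A) capture, and of transcript length, in the histone ratios was not tested.

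**Figure D4:**
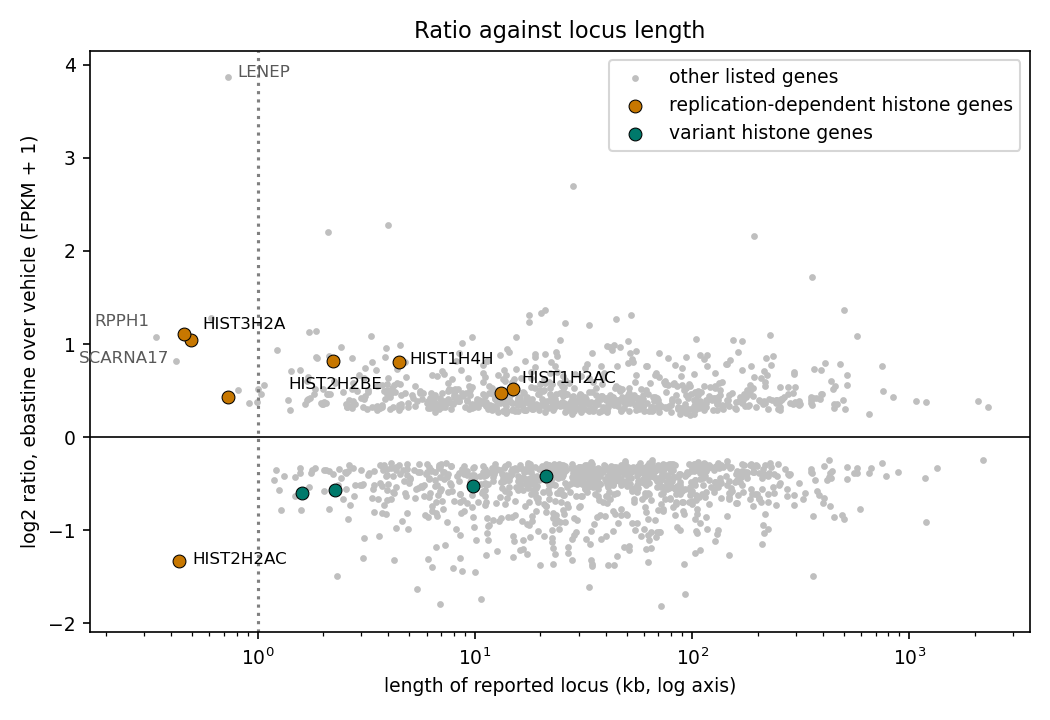
Log2 ratio of ebastine over vehicle (FPKM + 1) against the length of the reported locus (kb, log axis) for listed genes, with the 12 histone genes in colour and a dotted line at 1 kb. Left of the line 10 of 11 genes lie above 0, and HIST2H2AC is the one below; the empty band at 0 is where the table's p-value limit leaves no genes. LENEP, which reached the mean limit through the ebastine library alone, and SCARNA17 were labelled after their values were seen.

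Genes that lie beside histone genes were compared within 500 kb of a member's start, among the 1768 listed genes whose mean reached 1 FPKM. Near HIST1H4H, HIST1H2AC, HIST1H2BD and HIST1H1C on chromosome 6 lay the same 3 of these genes, TRIM38, BTN3A1 and BTN3A3. Their log2 ratios were 0.33, 0.41 and 0.38, all higher as those 4 histone genes were, beside 43.0% of listed genes. Their levels were low, from 1.54 to 2.79 FPKM over both libraries. HIST1H2AK had no neighbour within that distance among the genes compared. Next to HIST3H2A, RNF187 and RHOU were at 0.46 and 0.32. Beside the HIST2 pair, BOLA1 and ANP32E were at -0.46 and -0.50, the direction of HIST2H2AC and opposite to HIST2H2BE. Of 5 listed genes near the 4 variant genes 3 were lower, a share near the 57.0% of all listed genes. Chromatin domain and copy number were not measured here.

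The centromeric histone gene and the listed genes of histone chaperones and deposition factors were lower with ebastine. CENPA, the H3 variant of centromeres, lies outside the name rule. It was at 8.47 FPKM in the ebastine library and 22.2 FPKM in the vehicle library, 2.45-fold lower, with a q-value of 0.00178 in the authors' deposited table. Of 35 chaperone and deposition genes 11 were listed, beside 14.2% of all tested genes, and the others have no value here. All 11 were lower, beside 57.0% of listed genes, with a median log2 ratio of -0.47, beside -0.32. The authors' deposited table puts 7 of the 11 at a q-value under 0.05, beside 27.0% of listed genes that had one and were lower. After centring 10 of the 11 were lower, and SSRP1, a subunit of the FACT complex, was at 0.02. At 1.5-fold 2 of the 11 were lower, HJURP and OIP5, a share near the 18.6% of listed genes. HJURP, the chaperone that brings CENP-A to centromeres, had 16.4 FPKM in the ebastine library and 32.5 FPKM in the vehicle library. OIP5 and MIS18A, of the complex that prepares centromeres for CENP-A, had log2 ratios of -0.92 and -0.58. CENPA mRNA is known to peak late in the cell cycle.

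The other genes of the chaperone and deposition list differed less. ASF1B, which hands H3 and H4 to assembly factors, was at 27.7 FPKM in the ebastine library and 39.7 FPKM in the vehicle library, 1.42-fold lower. NAP1L1, an H2A and H2B chaperone, was 1.38-fold lower, HAT1, the acetyltransferase of new H4, 1.36-fold, and NASP, which stores H3 and H4, 1.28-fold. ANP32E, which removes H2A.Z from chromatin, was 1.41-fold lower, beside 1.48-fold for H2AFZ itself. MMS22L and NUCKS1, which are counted here because the list used holds them, were 1.34-fold and 1.27-fold lower.

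Of 46 genes that make and process histone mRNA 4 were listed, beside 14.2% of all tested genes. All 4 were lower, beside 57.0% of listed genes, and none by 1.5-fold. Their median log2 ratio was -0.37, near the -0.32 of all listed genes, and after centring they lay between -0.07 and 0.01. The S-phase kinase CDK2 was at 38.1 FPKM in the ebastine library and 49.7 FPKM in the vehicle library. SNRPB and SNRPG encode Sm proteins shared by spliceosomal RNPs and the U7 RNP that cuts histone mRNA, and had log2 ratios of -0.41 and -0.36. NFYB, a subunit of the CCAAT-binding factor, had a ratio of -0.29, and one of 0.01 after centring. SLBP, which binds the stem-loop, NPAT, the activator of histone loci, and POU2F1 (OCT1) were among the members not in the table.

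**Figure D5:**
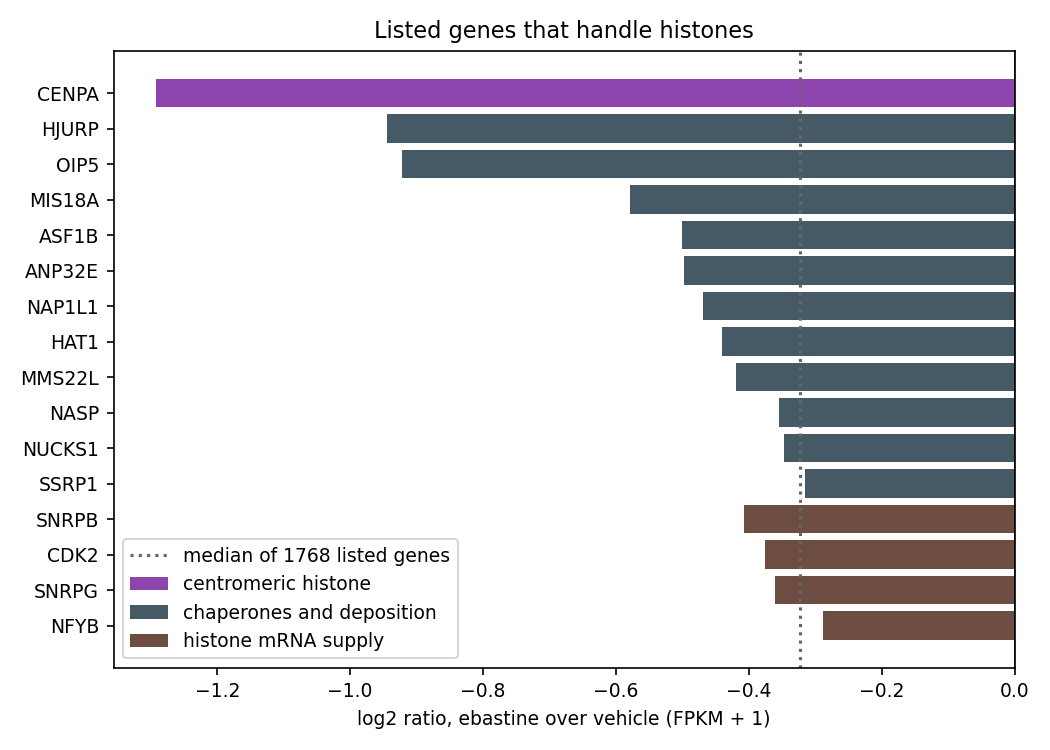
Log2 ratio of ebastine over vehicle (FPKM + 1) of CENPA, the 11 listed chaperone and deposition genes and the 4 listed genes of histone mRNA supply, with a dotted line at the median of the 1768 listed genes (-0.32). All bars lie below 0, from -1.29 for CENPA to -0.29 for NFYB; SSRP1 and NFYB lie above 0 after centring.

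Of 12 prostate markers 8 were in the table, beside 14.2% of all tested genes. With ebastine 4 were higher and 4 lower, beside 43.0% and 57.0% of listed genes. The table holds only genes that differed between the libraries, so being in it is no check of the line. KLK3 was at 1599 FPKM in the ebastine library and 2476 FPKM in the vehicle library, and FOLH1 at 840 FPKM in the ebastine library and 495 FPKM in the vehicle library. None of 15 leukocyte and stromal markers was in it, which leaves their levels unknown. Median FPKM of all listed genes was 9.49 in the ebastine library and 10.5 in the vehicle library.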

How the data were processed

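Polyadenylated RNA of 1 ebastine-treated and 1 vehicle-treated C4-2 culture was sequenced. The submitters' processing notes name TopHat2, Cuffdiff and hg19 with no version, and the sources used here give no gene models, strand setting or scaling method. The authors deposited FPKM values, a log2 fold change, a test score (not used), p-values and q-values per gene. The deposited q-values follow from 13714 tested genes, of which the table holds 14.2%, and it ends at the authors' p-value of 0.0499 from Cuffdiff. Depth is unknown: no counts are given and 3 genes have a mean under 0.3 FPKM.

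Here log2 ratios were computed from the deposited FPKM with a pseudocount of 1 (Python 3.11.15, pandas 2.3.3), over genes whose mean reached 1 FPKM; a gene was called at 1.5-fold. The calculation was tested on simulated data. Locus starts were converted to count from 1. Promoters are from RefSeq and transcripts from GENCODE, matched by name or older name. The members described were named, with every listed gene of the lists used, although prostate markers other than KLK3 and FOLH1 (added after its value was seen) are given by count; 1 variant member and 1 chaperone gene are not reported here and were left out of the counts, medians and sums over members and lists. Members and lists were chosen with earlier results of these data known. SCARNA17 and LENEP were chosen after their values were seen.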

Additional observations from a re-analysis of the deposited data

How the results depend on the processing

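With no replicates and no counts, no interval exists and every ratio describes 2 libraries. All 12 histone genes kept their direction under pseudocounts of 0.1 and 5 FPKM, centring, equal upper quartiles and equal sums. A pseudocount cannot change a direction, and these scalings all raise the ebastine values, so the 7 higher genes could not have changed. Only the 5 lower genes could change direction, and only under the scalings. The 4 replication-dependent genes at least 1.5-fold higher became 7 after centring and after equal upper quartiles, and 2 at a limit of 2-fold or with the authors' q-value under 0.05. The 1 lower became 0 with a mean of at least 5 FPKM or that q-value limit. The 1 variant gene at least 1.5-fold lower became 0 with a pseudocount of 5 FPKM, after centring, after equal upper quartiles and at 2-fold. With the q-value limit, 2 replication-dependent genes were higher and 3 variant genes lower at any size, and the 11 lower chaperone genes became 7; fewer genes pass that limit by construction. These counts at any size were chosen after seeing the data. HIST2H2AC ranged from -1.79 to -0.64. Centring turned NFYB to 0.0077, SSRP1 to 0.0166 and TMPRSS2 to 0.0081. No paired analysis was possible because each group has 1 library.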
